A study of Mus musculus with 6 samples.

Results

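Ribosomal protein genes of mouse ovarian surface epithelial cells were compared between the early passage M0505 line and STOSE, the line that arose from M0505 by spontaneous transformation in culture. The genes were chosen by name. The cytosolic set holds the genes named Rps or Rpl with a number, together with Rpsa, Rplp0, Rplp1 and Rplp2, and the mitochondrial set holds those named Mrps or Mrpl with a number. This gave 84 cytosolic genes (33 Rps and 51 Rpl) and 74 mitochondrial genes (29 Mrps and 45 Mrpl), 158 of the 20405 genes on the array with a symbol. Where a symbol had more than 1 probe set, the brightest over the 6 arrays stood for the gene.

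RNA from 3 samples of each line, labelled as biological replicates, was hybridized to Affymetrix Mouse Gene 1.0 ST arrays, which read each gene with many short probes along its transcript. M0505 is a line of FVB/N ovarian surface epithelium used here at early passage, and STOSE is a descendant of it that was kept in passage until it had transformed. Both were grown in the same α-MEM medium with serum, epidermal growth factor and insulin-transferrin-selenium supplement, and no engineered allele or drug treatment is named for either. Each is a single line from 1 derivation, so transformation, time in culture and chance differences between these lines cannot be told apart. The labels do not say whether the replicates were separate cultures, so the p-values measure the spread between these samples.

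A ribosome joins ribosomal RNA with proteins of a small subunit (Rps, which decodes the messenger RNA) and a large subunit (Rpl, which joins the amino acids). Cytosolic ribosomes translate the messages of the nucleus, while mitochondrial ribosomes translate the few messages of the mitochondrial genome and are built from nuclear-encoded Mrps and Mrpl proteins. Making ribosomes is among the largest costs of a growing cell, and transcription by RNA polymerase I, assembly in the nucleolus and mTORC1 signaling are known to set its pace.

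Values are log2 robust multi-array average (RMA) values, and differences are STOSE minus M0505 on that scale. A gene was called higher or lower at an adjusted p under 0.05 in limma, with Benjamini-Hochberg adjustment over all 20405 genes. By this rule 31.6% of all genes were higher in STOSE cells and 24.8% were lower, with a median difference of 0.08. The same amount of RNA went onto each array and the arrays share 1 distribution of values, so a difference is relative to the other transcripts. In bulk RNA, fewer cells that express a gene and less RNA per cell cannot be told apart. Even so, the arrays kept different medians over the genes, from 6.25 to 6.29 in STOSE and from 6.46 to 6.49 in M0505. Centring each array on its median moved the median difference of all genes to 0.28 and the calls from 6454 higher and 5066 lower to 12738 higher and 3804 lower. Centring moves the difference of every gene upward by the same amount. The medians of the ribosomal protein sets, positive without it, therefore had to stay positive with it.

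Most ribosomal protein genes were modestly higher in STOSE cells. In the cytosolic set 66 of 84 genes (78.6%) were higher and 0 were lower, with a median difference of 0.31, a fold of 1.24. At an unadjusted p under 0.05 in limma 0 were lower as well, and the methods' unadjusted test called 1 lower (Rpl39). The mitochondrial set had 48 of 74 (64.9%) higher and 6 (8.11%) lower, with the same median of 0.31. After median centring the cytosolic and the mitochondrial medians were both 0.51, against 0.28 for all genes. A fold of at least 2 was rare: 2 cytosolic genes (Rpl11 and Rpl13) and 4 mitochondrial genes (Mrps5, Mrpl47, Mrpl9 and Mrpl12) passed it upward and 0 passed it downward, where 4.9% of all genes did so upward and 7.59% downward. The 3 STOSE arrays all lay above the 3 M0505 arrays in 75 cytosolic and 51 mitochondrial genes, and all below in 1 and 9, where 37.6% and 27% of all genes were separated in these ways.

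**Figure D1:**
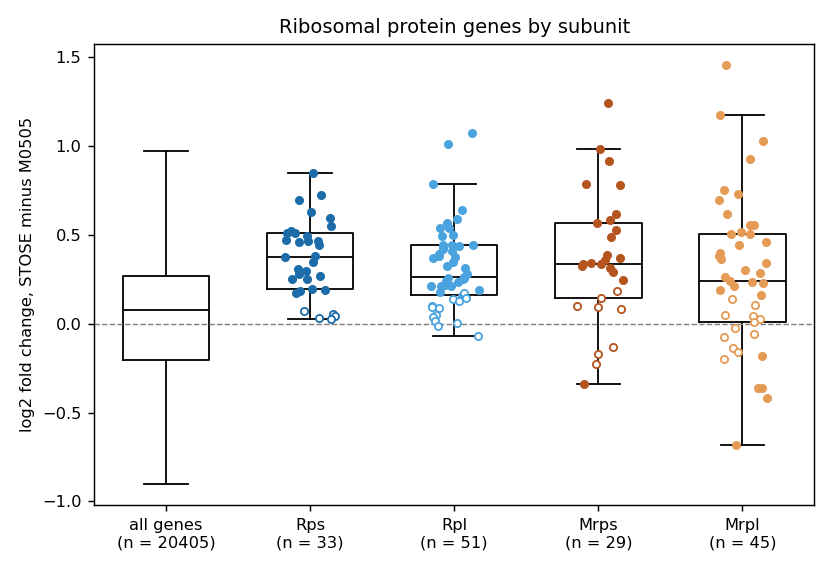
Log2 fold change (STOSE minus M0505) of every ribosomal protein gene by subunit beside all 20405 genes. Subunits are groups by gene name (Rps, Rpl, Mrps and Mrpl), so Mrps30, now known to sit in the large subunit, stands with Mrps. Each point is a gene, filled where the adjusted p was under 0.05. Boxes span the quartiles with the median as a line, and whiskers reach the last value within the usual Tukey fences. The medians of the 4 name groups lie between 0.24 and 0.37, above the 0.08 of all genes. Genes that were called lower appear in the 2 mitochondrial columns.

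The promoters of some of these genes are shown first, since they carry short motifs that are examined further on. They are those of the 2 Rps genes and 2 Rpl genes with the largest increases, of 3 mitochondrial genes that were at least 2-fold higher, and of Mrpl33, the mitochondrial gene that was lowest in STOSE relative to M0505. Rps6, whose message did not pass the test, was added after its values were seen. Each sequence is 100 bases of GRCm38.p6 from RefSeq, read 5′ to 3′ on the strand of the gene, with 80 bases before the annotated start and 20 from the start on. Capitals mark matches to the motifs named in the paragraph on promoters. The labels cover these 100 bases alone. A gene may carry a motif elsewhere in the wider window searched there, as Mrps5 and Rps15a do for SP1.
Rps15a (chr7:118116128-118116227, minus strand, YY1 and TOP): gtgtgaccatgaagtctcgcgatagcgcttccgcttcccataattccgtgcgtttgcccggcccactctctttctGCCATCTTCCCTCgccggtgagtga
Rps7 (chr12:28635934-28636033, minus strand, GABP): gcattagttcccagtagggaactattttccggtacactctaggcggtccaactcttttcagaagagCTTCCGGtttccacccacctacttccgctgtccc
Rpl11 (chr4:136053374-136053473, minus strand, GABP): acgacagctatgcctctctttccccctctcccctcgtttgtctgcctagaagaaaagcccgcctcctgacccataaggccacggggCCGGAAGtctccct
Rpl13 (chr8:123102270-123102369, plus strand, SP1): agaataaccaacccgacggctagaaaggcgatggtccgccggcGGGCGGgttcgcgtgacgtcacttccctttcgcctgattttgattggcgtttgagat
Rps6 (chr4:86857348-86857447, minus strand, TOP): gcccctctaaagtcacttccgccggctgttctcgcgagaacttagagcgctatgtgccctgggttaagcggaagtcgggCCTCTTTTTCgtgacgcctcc
Mrps5 (chr2:127587346-127587445, plus strand, no match): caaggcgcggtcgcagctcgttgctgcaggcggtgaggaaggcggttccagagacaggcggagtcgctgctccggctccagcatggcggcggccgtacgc
Mrpl47 (chr3:32736736-32736835, minus strand, no match): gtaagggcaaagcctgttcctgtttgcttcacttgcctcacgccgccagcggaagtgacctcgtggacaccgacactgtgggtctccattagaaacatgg
Mrpl9 (chr3:94443256-94443355, plus strand, NRF1): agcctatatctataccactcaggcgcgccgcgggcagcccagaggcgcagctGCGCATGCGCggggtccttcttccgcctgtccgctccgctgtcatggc
Mrpl33 (chr5:31613871-31613970, plus strand, GABP and NRF1): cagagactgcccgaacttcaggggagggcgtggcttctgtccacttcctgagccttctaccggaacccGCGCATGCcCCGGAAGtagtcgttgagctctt

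Among the cytosolic small subunit genes, 28 of 33 were higher and 0 lower, with a median difference of 0.37 and a range from 0.03 to 0.85. Rps15a, a protein of the body of the small subunit, read 9.43, 9.12 and 9.35 on the M0505 arrays and 10.12, 10.19 and 10.13 on the STOSE arrays. All STOSE arrays lay above all M0505 arrays, and the difference was 0.85 ± 0.09 (SE), a fold of 1.80 (limma adjusted p = 5.13e-05, n = 3 per line). Rps7, which is also known to bind Mdm2, the ligase that degrades p53, rose from 10.78, 10.60 and 10.71 to 11.37, 11.42 and 11.46. The increase was 0.72 ± 0.07 (SE) with an adjusted p of 2.82e-05 in limma. Rps29, a zinc-binding protein near the decoding region, had 9.44, 9.44 and 9.46 in M0505 and 10.12, 10.22 and 10.10 in STOSE, a difference of 0.70 ± 0.06 (SE, adjusted p = 1.59e-05, limma). In the printed promoters Rps15a carries a TOP tract and Rps7 a GABP match.

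Large subunit genes held the 2 cytosolic members that passed 2-fold. Of 51 Rpl genes, 38 were higher and 0 lower, with a median of 0.26 and a range from -0.07 to 1.07. Rpl11, which sits with Rpl5 and the 5S ribosomal RNA in the central protuberance, read 10.32, 10.18 and 10.26 in M0505 and 11.33, 11.34 and 11.31 in STOSE. Its fold was 2.11 (log2 difference 1.07 ± 0.06 SE, limma adjusted p = 1.56e-06). Rpl13, a structural protein of the large subunit, went from 9.36, 9.32 and 9.41 to 10.36, 10.42 and 10.34, a fold of 2.01 (1.01 ± 0.06 SE, adjusted p = 1.81e-06 in limma). Rpl8, which lies close to the peptidyl transferase center, had 10.66, 10.60 and 10.71 in M0505 and 11.47, 11.43 and 11.43 in STOSE. That was a difference of 0.79 ± 0.06 (SE, limma adjusted p = 6.98e-06). For these 3 genes the STOSE arrays differed from each other by no more than 0.08, far less than the distance between the lines.

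**Figure D2:**
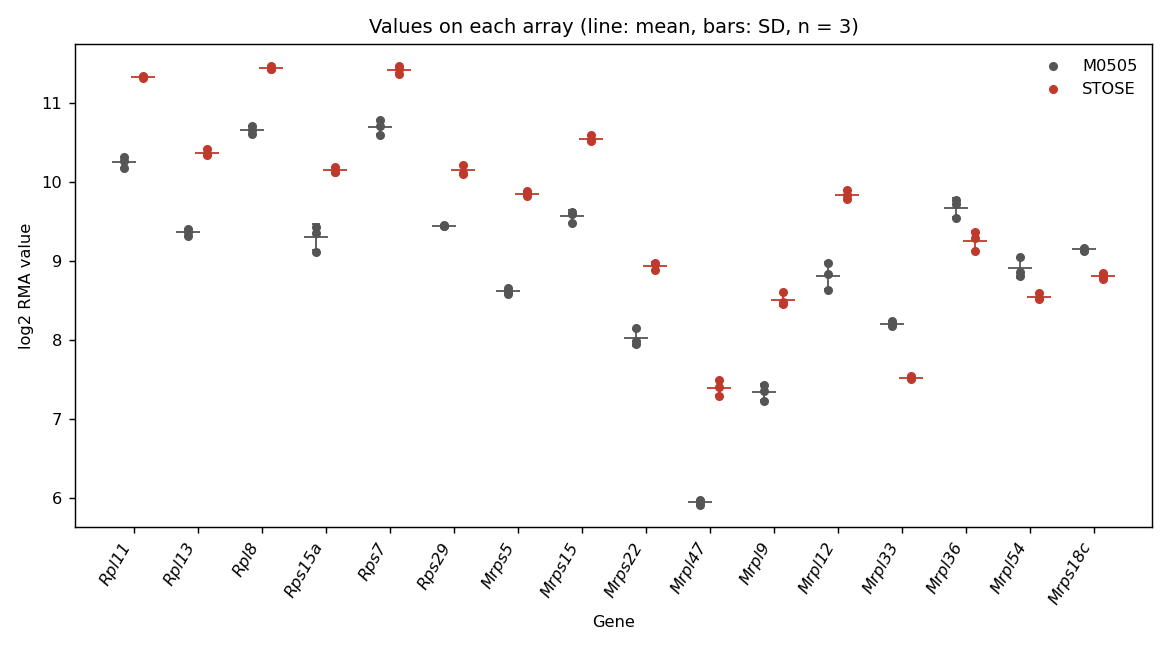
Log2 RMA value on each of the 6 arrays for the 3 largest increases in each subunit and 4 mitochondrial genes that were lower in STOSE. Each dot is an array, the line is the mean and the bars are the SD (n = 3 per line). The dots of the lines do not overlap in any of the genes drawn, as in Rpl11 with 10.18 to 10.32 in M0505 and 11.31 to 11.34 in STOSE.

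The proteins of the ribosomal stalk, which recruits the translation factors, did not move by the same amount. Rplp0, the base of the stalk, read 12.08, 12.00 and 12.04 in M0505 and 12.10, 12.14 and 12.14 in STOSE. The STOSE arrays were above the M0505 arrays, but the difference of 0.09 ± 0.05 (SE) did not pass the test (limma adjusted p = 0.212). Rplp1 rose from 11.78, 11.75 and 11.82 to 12.17, 12.24 and 12.17, by 0.41 ± 0.06 (SE, adjusted p = 0.000327, limma). This was the smallest difference of the 3 Rplp1 probe sets, which ranged up to 0.79, while the 4 of Rplp0 ranged from 0.09 to 0.12. Rplp2, from its only probe set, had a similar difference of 0.38 ± 0.07 (limma adjusted p = 0.00141) at values of 5.26 to 5.42 in M0505 and 5.65 to 5.77 in STOSE. Those values lie not far above the 4.74 that marks the 95th percentile of 1134 olfactory receptor probe sets, genes with little known use outside the nose, so this probe set read little signal. The stalk genes were thus read at unlike signal levels, and whether the level affects the size of a difference was not tested.

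Cytosolic proteins with known tasks besides the ribosome differed among themselves, as did the whole cytosolic set, whose quartiles were 0.18 and 0.47. Rps6, the substrate of the S6 kinases downstream of mTORC1, read 11.99, 12.00 and 12.04 in M0505 and 12.10, 12.09 and 12.06 in STOSE, and the difference of 0.07 ± 0.05 (SE) did not pass (limma adjusted p = 0.277). Rpl5, the partner of Rpl11 in binding Mdm2, rose by 0.24 ± 0.07 (SE, adjusted p = 0.0187, limma), much less than Rpl11. Its call was lost without M0505 replicate 2 (0.18, adjusted p = 0.0625) or without STOSE replicate 1 (0.21, adjusted p = 0.0533). Rpsa, which doubles as a laminin receptor precursor, went from 10.95, 10.90 and 10.92 to 11.44, 11.33 and 11.32, an increase of 0.44 ± 0.06 (SE, limma adjusted p = 0.000276). Rps27a, made as a fusion with ubiquitin, increased from 9.50, 9.41 and 9.57 to 10.02, 10.09 and 10.03, by 0.55 ± 0.06 (SE, adjusted p = 0.000105 in limma).

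Some cytosolic proteins have a second gene that encodes a close relative, and the pairs were read side by side. Rpl3 rose by 0.37 ± 0.06 (SE, limma adjusted p = 0.000875), and Rpl3l, its muscle relative, had a difference of 0.38 at values of 3.74 to 4.23, below the olfactory 95th percentile on every array. Rpl10 stayed between 12.05 and 12.11 on all 6 arrays (difference 0.01, adjusted p = 0.839), while Rpl10l, a testis relative, had 4.79, 4.90 and 5.01 in M0505 and 5.17, 5.27 and 5.59 in STOSE (difference 0.44, limma adjusted p = 0.00973, and 0.0667 by the methods' adjusted test), again close to background. Rpl39 read 11.93, 11.99 and 11.95 in M0505 and 11.87, 11.90 and 11.89 in STOSE, the single cytosolic gene with all STOSE arrays below, but its difference of -0.07 did not pass (adjusted p = 0.303) and turned to 0.13 after median centring. Rpl39l, another testis relative, lay between 2.79 and 2.93 on all arrays, within background, and its difference of -0.01 turned to 0.19 under that centring.

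The other pairs were read in the same way. Rpl7 and Rpl7l1 differed by 0.31 ± 0.09 and 0.25 ± 0.06 (SE, limma adjusted p = 0.0167 and 0.00569), and the call of Rpl7 was lost without STOSE replicate 3 (0.28, adjusted p = 0.0553) and by the methods' adjusted test (0.0708). Rpl22, which is known to repress its relative Rpl22l1, rose by 0.26 ± 0.07 (SE, adjusted p = 0.0136, limma), a call lost without M0505 replicate 2 (0.23, adjusted p = 0.0533). Rpl22l1 itself overlapped between the lines, with 6.91, 6.73 and 7.01 in M0505 and 6.95, 7.08 and 6.91 in STOSE (limma adjusted p = 0.36). Rps27 rose by 0.26 ± 0.06 (SE, adjusted p = 0.00787), whereas Rps27l, known as a p53 target, read 9.71, 9.45 and 9.84 in M0505 and 9.71, 9.65 and 9.74 in STOSE, with complete overlap (limma adjusted p = 0.791). Rps4x rose by 0.19 ± 0.06 (SE, limma adjusted p = 0.0217), and that call was lost without any 1 of 4 arrays, M0505 replicate 1 or 2 or STOSE replicate 2 or 3, at adjusted p of 0.0537, 0.0637, 0.0788 and 0.0585. The dim Rps4y2, which RefSeq names Rps4l, had a difference of 0.25 (adjusted p = 0.0046). Whether 1 member of a pair differed more than the other was not tested.

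Mitochondrial ribosomal protein genes had the same median difference as the cytosolic ones but spread further, from -0.68 to 1.45. Among the genes named Mrps, after the small subunit, 20 of 29 were higher and 1 was lower, with a median of 0.34. Mrps5 led with 8.59, 8.61 and 8.65 in M0505 and 9.86, 9.88 and 9.82 in STOSE, a fold of 2.36 (log2 difference 1.24 ± 0.06 SE, limma adjusted p = 4.9e-07). Its homolog in bacteria helps to hold decoding accurate. Mrps15 rose from 9.48, 9.59 and 9.63 to 10.52, 10.60 and 10.53, by 0.98 ± 0.06 (SE, adjusted p = 3.67e-06, limma). Mrps22, a protein found in mitochondrial but not in bacterial ribosomes, went from 8.15, 7.95 and 7.99 to 8.96, 8.98 and 8.89, by 0.91 ± 0.07 (SE, limma adjusted p = 1.04e-05). In all 3 genes the lines were separated by several times the spread within a line.

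The 3 Mrps18 genes encode related proteins and did not move together. Mrps18b read 10.29, 10.12 and 10.05 in M0505 and 11.06, 10.90 and 10.86 in STOSE, an increase of 0.78 ± 0.08 (SE, limma adjusted p = 7.67e-05). Mrps18a had 9.41, 9.44 and 9.45 against 9.69, 9.48 and 9.41, which overlap (difference 0.10, adjusted p = 0.333 in limma). Mrps18c was the single Mrps gene called lower, with 9.17, 9.13 and 9.14 in M0505 and 8.80, 8.85 and 8.78 in STOSE, a difference of -0.34 ± 0.05 (SE, limma adjusted p = 0.000854). After median centring Mrps18c was still called lower, at -0.14, and Mrps18a passed as higher, at 0.30.

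In the mitochondrial large subunit 28 of 45 Mrpl genes were higher and 5 were lower, with a median of 0.24. Mrpl47, by its brighter probe set, had the largest difference of the 158 genes, from 5.97, 5.96 and 5.91 in M0505 to 7.50, 7.41 and 7.30 in STOSE, a fold of 2.74 (1.45 ± 0.07 SE, limma adjusted p = 6.17e-07). Its other probe set was higher by 0.80, and the mean of both by 1.13, below Mrps5 and Mrpl9. Mrpl9 rose from 7.23, 7.43 and 7.36 to 8.61, 8.48 and 8.45, a fold of 2.26 (1.17 ± 0.07 SE, adjusted p = 3.4e-06, limma). Mrpl12, the stalk protein that also binds the mitochondrial RNA polymerase, went from 8.97, 8.63 and 8.84 to 9.90, 9.83 and 9.78, a fold of 2.04 (1.03 ± 0.09 SE, limma adjusted p = 2.19e-05). The arrays of the lines were far apart in each. Mrpl41, linked to p53-dependent growth arrest, had 7.45, 7.19 and 7.61 against 7.63, 7.95 and 7.70, a difference of 0.34 ± 0.12 (SE, adjusted p = 0.042 in limma). The call was lost without any 1 of 4 arrays, M0505 replicate 1 or 2 or STOSE replicate 2 or 3, at adjusted p of 0.0739, 0.134, 0.132 and 0.0648, with the difference down to 0.23 without M0505 replicate 2. It was also lost with the replicate number as a block (adjusted p = 0.0686) and by the methods' test, unadjusted (0.0944) or adjusted (0.147). Mrps30, now known to sit in the large subunit, had a difference of 0.18 that fell just short (adjusted p = 0.0514).

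5 Mrpl genes were lower in STOSE. Mrpl33 read 8.24, 8.20 and 8.17 in M0505 and 7.54, 7.50 and 7.52 in STOSE, a fold of 0.623 (-0.68 ± 0.05 SE, limma adjusted p = 1.22e-05). Mrpl36, one of the smallest ribosomal proteins, fell from 9.54, 9.77 and 9.72 to 9.12, 9.37 and 9.29, a difference of -0.42 ± 0.09 (SE, adjusted p = 0.00375, limma). Mrpl54, absent from bacterial ribosomes, had 8.82, 8.86 and 9.06 in M0505 and 8.52, 8.60 and 8.53 in STOSE (-0.36 ± 0.08 SE, limma adjusted p = 0.00373). In each of these 3 the STOSE arrays lay below the M0505 arrays. The other two, named after their values were seen, were Mrpl39 (-0.36) and Mrpl10 (-0.18). After median centring Mrpl33 (-0.48) and Mrps18c were the 2 mitochondrial genes still called lower, while Mrpl36 (-0.22, adjusted p = 0.0554) and Mrpl54 (-0.16, adjusted p = 0.0974) no longer passed.

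Mitochondrial proteins numbered after a bacterial counterpart (Mrps up to 21 and Mrpl up to 36) were set beside those with later numbers, which were mostly gained during the evolution of mitochondria. Of the 44 with bacterial numbers, 30 were higher and 4 lower, with a median of 0.37. The 30 later ones had 18 higher and 2 lower, with a median of 0.25. Both groups hold genes at the top of the range, Mrps5 at 1.24 in the first and Mrpl47 at 1.45 in the second.

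Ribosomal protein messages are among the brightest on the array, so their differences were read beside other genes of like brightness. Of the 50 cytosolic genes with a mean of 11 or more, 36 were higher, with a median difference of 0.24, while of 417 other genes in that range 31.9% were higher and 26.4% lower with a median of 0.04. Between 10 and 11, 17 of 18 cytosolic genes were higher at a median of 0.47, beside 39.1% of other genes at a median of 0.03. Whether signal near the top of the scale (largest value 12.81) narrowed differences was not tested. The mitochondrial genes showed 21 of 30 higher between 9 and 10 (median 0.28), where other genes had a median of 0.00 and 38.8% higher. Between 8 and 9, 10 of 17 mitochondrial genes were higher and 2 lower at a median of 0.36. The other genes between 8 and 9 were 38.7% higher and 38.9% lower, with a median of 0.00. Few mitochondrial genes lay between 10 and 11, where 3 of 6 were higher and 2 lower at a median of 0.15, beside 39.1% and 33.1% of other genes.

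**Figure D3:**
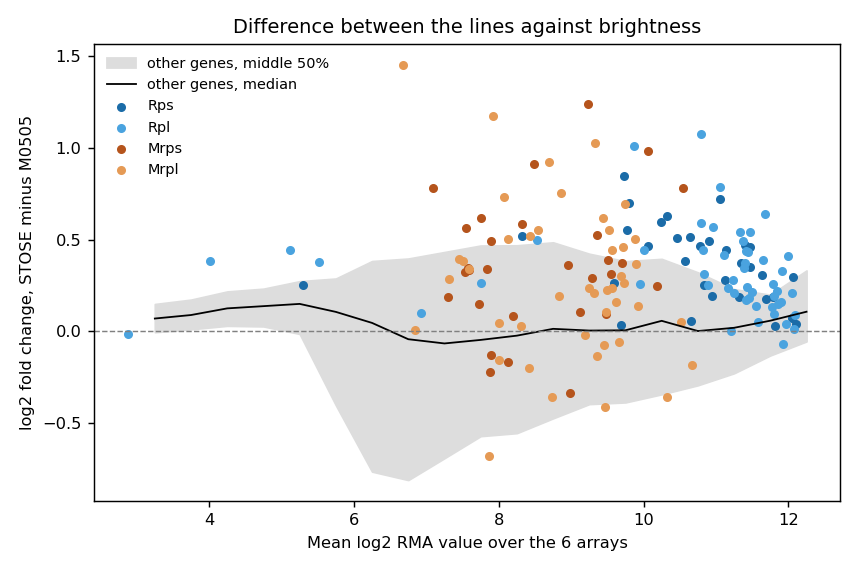
Log2 fold change (STOSE minus M0505) against the mean log2 RMA value over the 6 arrays for the ribosomal protein genes (points, colored by subunit). The line and the grey band give the median and the quartiles of the other genes at that brightness. Most points lie above the line, and the cytosolic genes crowd at the bright end, where 36 of the 50 with a mean of 11 or more were higher.

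Cytosolic ribosomal protein genes have many processed copies in the genome, and on this array 455 probe sets carry the 84 symbols, against 87 for the 74 mitochondrial genes. Probe sets of 1 symbol may read the same transcript or a near-identical copy, so they are not independent and the source of the signal is uncertain. With each probe set tested by itself, 340 of the 455 (74.7%) were higher and 1 was lower, where 32.8% of all probe sets with a symbol were higher and 23.6% lower. Of the 371 that had not been kept to stand for a gene, 274 were higher and 1 was lower. Among the mitochondrial probe sets 56 were higher and 8 lower.

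Within most symbols the probe sets gave nearly the same difference. All 10 probe sets of Rpl13 were higher, by 0.87 to 1.05, as were all 6 of Rpl11, by 1.00 to 1.16. All 29 of Rpl29, all 18 of Rpl7a and all 18 of Rps2 were also higher, while 0 of 18 for Rps12, 0 of 8 for Rps6, 0 of 6 for Rpl10 and 1 of 34 for Rpl21 were. Rpl29, Rpl7a, Rps2, Rps12, Rpl21, Rpl31, Rpl12 and Mrpl51 were named after their values were seen. Rpl31 was an exception, with 8 probe sets higher and 1 dim one lower by -0.93. In Rpl12 the probe sets ranged from 0.15 to 1.91, the largest in a probe set that went from 7.44 in M0505 to 9.35 in STOSE while the one kept for the gene went from 11.95 to 12.16. Mrpl51 had 1 probe set higher (0.26) and 1 lower (-0.24). The higher one was the brighter and was kept, so the count of this gene as higher rests on that choice.

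**Figure D4:**
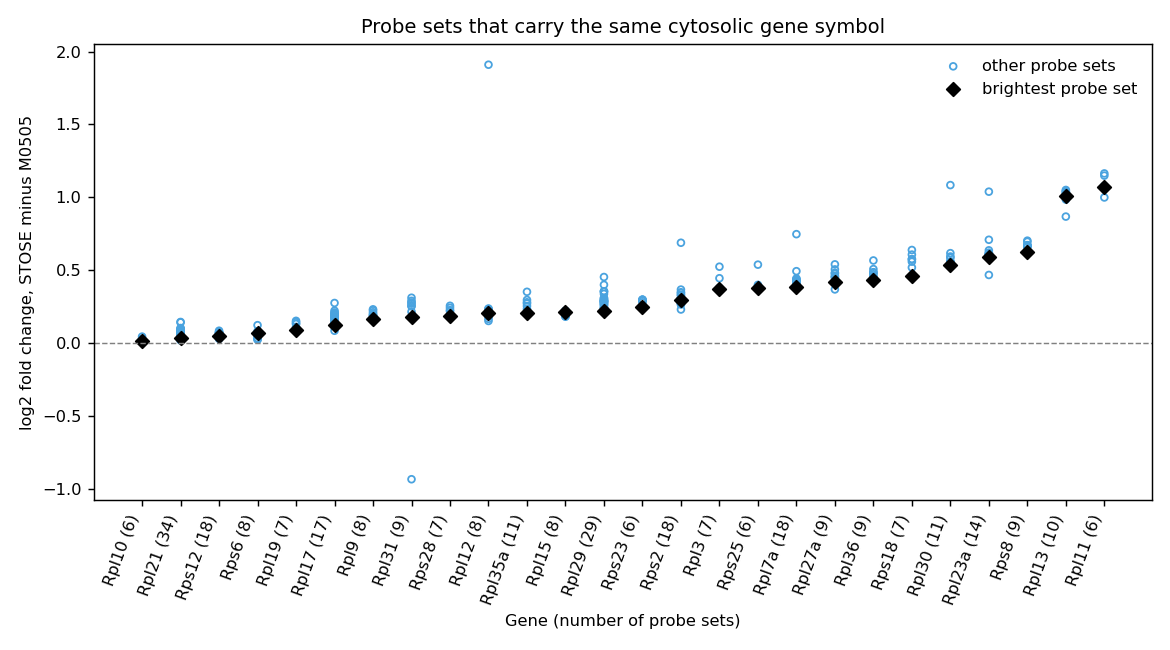
Log2 fold change (STOSE minus M0505) of every probe set for the cytosolic genes with at least 6 probe sets, whose number stands in brackets after the gene. Circles are probe sets, and the diamond is the brightest one, which was kept for the gene. Probe sets of a gene cluster closely, from 0.01 to 0.05 in Rpl10 up to 1.00 to 1.16 in Rpl11, with the widest departures in Rpl12 (1.91) and Rpl31 (-0.93).

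The 158 genes are spread over 20 chromosomes in RefSeq GRCm38.p6, and 132 of them (77 of 84 cytosolic and 55 of 74 mitochondrial) lay above the median of all genes on their own chromosome. The median distance from it was 0.23. Chromosomes were taken from the gene symbol. The brightest probe set of a symbol may read a copy on another chromosome, so the place of the signal is uncertain. Chromosomes nonetheless differed. All 8 members on chromosome 2 and all 5 on chromosome 15 were higher, as were 16 of 20 on chromosome 7. On chromosome 10, 0 of 5 were higher and 1 was lower (range -0.36 to 0.05), and on chromosome 13, 2 of 6 were higher and 1 lower. Of the 5 on chromosome 10, 4 lay above its all-gene median of -0.05, and that median was 0.17 on chromosome 15. Chromosome 5 held 3 higher and 2 lower of 9, among them Mrpl33, and 1 of the 4 on X was higher. The paper's karyotypes showed a loss of chromosomes 3, 5 and 8 in STOSE cells and of 3, 8 and 12 in M0505 cells. M0505 cells also had terminal deletions of chromosomes 1 and 4. STOSE cells, mostly near-triploid, carried extra material at the end of chromosome 4. Members higher were 7 of 8 on chromosome 1, 7 of 9 on 3 and 8 of 9 on 4. On chromosomes 8 and 12 they were 3 of 4 and 3 of 3, and each of these 5 chromosomes had 0 lower. No test was made of these differences between chromosomes or of the part of the karyotypes in them.

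Promoters were searched for motifs known from ribosomal protein genes in a window from 250 bases before the annotated start to 50 after it. RefSeq promoters were given for 128 of the members, 63 cytosolic and 65 mitochondrial. The motif CCGGAAG, known to bind GABP and other Ets factors, was found on either strand in 41.3% of the cytosolic and 35.4% of the mitochondrial promoters, in 13.8% of those of all array genes and in 8.86% of all 32851 promoters. YY1 (AAGATGGC, either strand) was found in 9.52%, 16.9%, 3.79% and 2.75% of these. SP1 (GGGCGG, either strand) had 61.9%, 49.2%, 53.4% and 35.7%, and the E box CACGTG, which Myc binds, had 9.52%, 7.69%, 9.53% and 7.15%. The TOP motif, a tract of pyrimidines at the start of the message through which mTORC1 controls translation, was taken as a C within 5 bases of the start followed by at least 4 C or T on the sense strand. It was found in 46.0% of cytosolic, 24.6% of mitochondrial, 22.1% of array gene and 18.3% of all promoters. These shares depend on where the start is annotated. Genes counted without the motif may still carry the tract, so the groups with and without it may be mixed.

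The difference between the lines was then read with and without each match. Cytosolic genes with and without the GABP letters had medians of 0.36 (n = 26) and 0.26 (n = 37), and for the TOP motif these were 0.30 (n = 29) and 0.27 (n = 34). The mitochondrial medians with and without GABP were 0.29 and 0.34, and for TOP 0.34 and 0.31. With and without YY1 they were 0.26 (n = 6) and 0.28 in the cytosolic and 0.49 (n = 11) and 0.30 in the mitochondrial set. The E box gave 0.39 (n = 6) and 0.26 in the cytosolic and 0.50 (n = 5) and 0.31 in the mitochondrial set, and SP1 gave 0.30 and 0.26, and 0.31 and 0.31. NRF1 (GCATGCGC, either strand), a motif of many nuclear genes for mitochondrial proteins, was found in 12.3% of mitochondrial and 4.76% of cytosolic promoters, 4.28% of array genes and 2.71% of all promoters. In Mrpl9 it matches on both strands in overlap, which gives the longer run of capitals. The 8 mitochondrial genes with it had a median of -0.17 against 0.32 for the 57 without, and the 3 cytosolic ones 0.24 against 0.29. Named after their values were seen, they were Mrpl33 (-0.68), Mrpl39 (-0.36), Mrpl32 (-0.20), Mrpl10 (-0.18), Mrpl17 (-0.16), Mrpl22 (0.38), Mrps18b (0.78) and Mrpl9 (1.17), of which 3 were called lower and 3 higher. This pattern rests on 8 genes and was noticed among 6 motifs, and it was not tested.

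Proteins of the ribosome whose genes bear other names were higher as well, 10 of 11, with a median of 0.42. Gadd45gip1, a mitochondrial large subunit protein first known as a cell cycle regulator, rose by 0.94 ± 0.06 (SE, limma adjusted p = 2.22e-06), from 7.68, 7.65 and 7.63 to 8.56, 8.64 and 8.59. Dap3, a small subunit protein that binds GTP, rose by 0.74, and Ptcd3, another small subunit protein, by 0.61. Chchd1 (0.46), Ict1 (0.42) and Aurkaip1 (0.24) complete the mitochondrial ones that rose. On the cytosolic side Rpl36al (0.49), the Rack1 gene Gnb2l1 (0.34) and Fau (0.19) were higher. Mrp63 was the exception at -0.20 ± 0.06 (SE, adjusted p = 0.0234 in limma), and this call was lost without M0505 replicate 3, STOSE replicate 1 or STOSE replicate 3 (adjusted p = 0.0818, 0.0663 and 0.0575) and under another quantile normalization (0.0985) or median centring (adjusted p = 0.987). The call of Chchd1 was lost without STOSE replicate 2 (adjusted p = 0.0516) and by the methods' test, unadjusted (0.0546) or adjusted (0.0944), and its difference was 0.29 without M0505 replicate 2.

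Genes that make ribosomes were read next. Of 94 genes of ribosome assembly and ribosomal RNA processing, 83 were higher and 3 lower, with a median of 0.76, and 26 passed 2-fold upward. Mrto4, a factor that prepares the site of the stalk, read 6.71, 6.65 and 6.69 in M0505 and 8.90, 9.02 and 8.81 in STOSE, a fold of 4.67 (limma adjusted p = 6.65e-08). Noc2l (1.87) and Rrp15 (1.79), both needed for the large subunit, came next. Gnl3l (-0.69), Las1l and Rrp1, named after their values were seen, were the 3 that were lower. In the RNA polymerase I machinery, which transcribes ribosomal RNA, 11 of 15 were higher and 2 lower with a median of 0.55. Its largest increases were Polr1b, the second subunit of the enzyme (1.44), Polr1e (1.39) and Taf1a of the promoter selectivity factor (1.14). The difference between these medians and those of the ribosomal proteins was not tested.

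**Figure D5:**
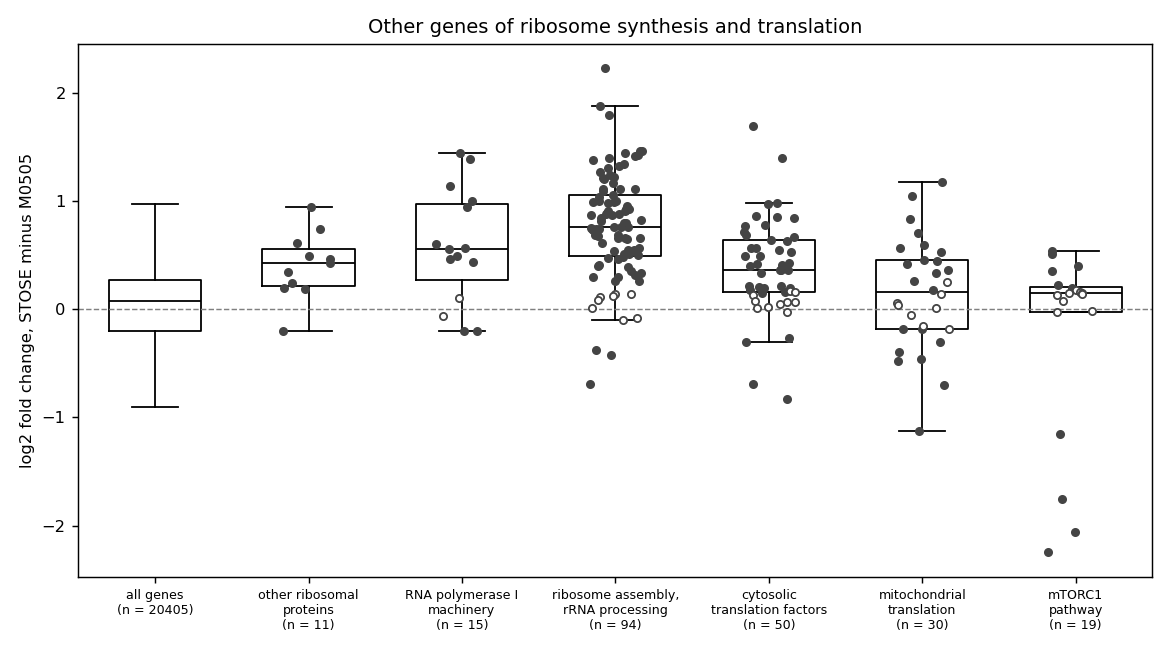
Log2 fold change (STOSE minus M0505) for 6 lists of genes of ribosome synthesis and translation beside all 20405 genes. Points are genes, filled where the adjusted p was under 0.05, and boxes and whiskers are drawn as for the subunits. Ribosome assembly has a median of 0.76, and the mTORC1 list holds 4 points far below the rest, from -1.15 to -2.25.

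Cytosolic translation factors had 36 of 50 genes higher and 4 lower at a median of 0.36, close to the ribosomal proteins. Eef1d, an exchange factor of elongation, rose from 7.64, 7.48 and 7.58 to 9.34, 9.21 and 9.22, a fold of 3.23 (limma adjusted p = 3.01e-07). Eif3i, a subunit of the large initiation complex, rose with a fold of 2.64. Of the mitochondrial translation and ribosome assembly factors, 14 of 30 were higher (46.7%) and 8 lower (26.7%), at a median of 0.16. Among all genes 31.6% were higher and 24.8% lower, so the share lower was near that of all genes. Gfm1, the mitochondrial elongation factor G, and Rnmtl1, a ribosomal RNA methyltransferase, rose by 1.17 and 1.05, and Gtpbp10, a GTPase of mitochondrial ribosome assembly, read 9.16, 8.86 and 8.91 in M0505 and 7.92, 7.94 and 7.71 in STOSE, a difference of -1.12 ± 0.10 (SE, adjusted p = 2.06e-05, limma).

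In the mTORC1 pathway 6 of 19 genes were higher and 4 lower, shares of 31.6% and 21.1% that lie near those of all genes. Without M0505 replicate 3 3 were higher. The 4 that were lower all passed 2-fold, and each is known to restrain mTORC1 or the translation it drives. The list holds other known restrainers, among them Tsc1, Tsc2, Sesn2 and the Eif4ebp genes, and none of those was called lower. Pdcd4, a translation inhibitor that S6 kinase marks for degradation, fell from 10.29, 10.72 and 10.63 to 7.99, 8.44 and 8.47 (-2.25 ± 0.15 SE, limma adjusted p = 4.95e-06). Sesn1 fell from 10.21, 9.94 and 9.90 to 8.09, 7.86 and 7.93 (-2.06 ± 0.10 SE, adjusted p = 7.14e-07 in limma), and Sesn3 from 9.13, 9.01 and 8.85 to 7.33, 7.31 and 7.10 (-1.75 ± 0.09 SE, limma adjusted p = 1.21e-06). Both are sestrins, inhibitors that act upstream of mTORC1. Ddit4, an inhibitor induced by stress and named after its values were seen, had a difference of -1.15.

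Markers of cell types were read on the same arrays, where 31.6% of all genes were higher and 24.8% lower. Ovarian surface epithelium and mesothelium markers were bright in both lines for Upk3b (12.25 and 11.91), Upk1b, Lrrn4, Gata6 and Wt1, but 11 of 13 were lower in STOSE, with Krt19 (-5.56), Krt8 (-4.55) and Nkain4 (-3.14) the most, and the mean of the list fell from between 11.03 and 11.08 on the M0505 arrays to between 9.56 and 9.69 on the STOSE arrays. Granulosa markers had 1 higher and 5 lower of 8, with list means of 7.13 to 7.23 against 5.63 to 5.69, led by Amhr2 (-5.01) and Inha (-3.93). Leukocyte markers had 4 higher and 1 lower of 12, with list means of 4.69 to 4.74 and 4.67 to 4.73, and 8 of the 12 were within background in both lines. Among these was Ptprc, which defines leukocytes, at 3.79 and 3.81, while Cd68, a marker of macrophages, fell from 9.78 to 6.96. Endothelial markers had 3 higher and 2 lower of 9, with list means of 5.36 to 5.46 and 4.87 to 4.93, Kdr being the largest change (-5.17). Fibroblast and stroma markers had 5 higher and 2 lower of 9, with list means of 7.71 to 7.79 and 7.82 to 7.87. The part of these differences in the ribosomal protein results was not tested.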

How the data were processed

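The authors prepared RNA with a column kit, labelled cDNA from 300 ng of total RNA and hybridized it to Affymetrix Mouse Gene 1.0 ST arrays. They deposited 1 table of log2 values made with Affymetrix Expression Console by RMA, which corrects background, quantile normalizes and summarizes each probe set, for 3 M0505 and 3 STOSE arrays (versions, annotation release and build are not given in the sources used here). The table's line means and the ratio (linear fold change) computed by the authors were not used, and 0 value columns were left over. Of 28944 probe sets, 23530 had a symbol, which gave 20405 genes by the brightest probe set. An array has no read depth, and 3 arrays per line limit the precision. Signal over background was judged from 1134 olfactory receptor probe sets. Arrays of a line correlated at 0.997 to 0.999, and arrays of different lines at 0.943 to 0.950.

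STOSE minus M0505 was fitted over all genes by the linear model of limma (version 3.58.1, lmFit followed by eBayes, R version 4.3.3) without covariates, after the code was tested on simulated data. An exact permutation test of 3 against 3 arrays cannot give a p below 0.1 and was not used. Lists were described by counts and medians only. Promoters and gene positions came from RefSeq GRCm38.p6 by symbol, and were handled in Python 3.11.15 with pandas 2.3.3. The members, the 6 ribosome and translation lists, the marker lists and the tests were chosen with earlier results of these data known. Named were members past 2-fold, the 3 largest increases and decreases in each subunit, paralogs, members with other roles, the 3 largest 2-fold changes each way per list, and the ribosomal proteins with other names, 1 result of which is not reported here. The alternatives were another quantile normalization, median centring, a filter on the dimmest 25% or 50%, averaging or separating a gene's probe sets, limma with trend, the methods' t-test (adjusted or not), the replicate number as a block, a 2-fold threshold and leaving out each array.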

Additional observations from a re-analysis of the deposited data

How the results depend on the processing

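Every ribosomal and translation list kept a positive median under each alternative that recomputed it. Median centring could not have altered this outcome, and neither could the replicate block, which leaves the differences as they are. Limma with trend, the methods' t-test and the 2-fold threshold change the calls alone, so no median was recomputed for them. Of 1049 values of single named genes under the alternatives, 30 lost their call, 19 gained one and 1 passed with its sign turned (Rpl39l, 0.19 under median centring, a gene within background). The other 999 kept their side of the threshold, 5 of them with the sign turned in genes that did not pass (Rpl10, Rpl39, Rps27l and, in 2 settings, Rpl39l). Median centring gave 12738 genes higher and a median of 0.28 for all genes, medians of 0.51 for the cytosolic set, 0.51 for the mitochondrial set, 0.62 for ribosomal proteins with other names, 0.75 for RNA polymerase I, 0.96 for ribosome assembly, 0.56 for cytosolic and 0.36 for mitochondrial translation and 0.35 for mTORC1. Genes lower were then 2 in the mitochondrial set, 0 with other names, 0 in RNA polymerase I, 2 in cytosolic and 5 in mitochondrial translation, and 14 of mTORC1 were higher. Rplp0 (0.29), Rps6 (0.27), Rpl10 (0.21), Rpl22l1 (0.30), Mrps18a (0.30) and Mrps30 (0.38) passed as higher under that centring. Another quantile normalization gave a median of 0.048 for all genes, 0.36 for the mitochondrial set and 0.25 for mitochondrial translation, where 5 were lower, with 0 lower with other names, 1 lower in RNA polymerase I and 10 higher in mTORC1. Asking for 2-fold left 1000 genes higher and 1548 lower, of which higher were 2 cytosolic, 4 mitochondrial, 0 with other names, 3 RNA polymerase I, 26 assembly, 2 and 2 of the translation lists and 0 mTORC1 genes, and lower were 0 mitochondrial, 0 with other names, 0 RNA polymerase I, 0 assembly, and 0 and 1 of the translation lists. Each probe set by itself gave 340 cytosolic higher and 1 lower, 17 higher with other names (median 0.32) and 20 higher in RNA polymerase I (median 0.99). Without the dimmest 50% of genes 4007 of all genes were higher with a median of 0.00452, and the cytosolic translation median was 0.40. RNA polymerase I had 1 gene lower by limma with trend and by the methods' adjusted t-test, and the unadjusted t-test called 1 cytosolic gene lower. The causes of these changes were not tested, apart from fewer or more features being counted.

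Leaving out each array in turn gave 55 to 65 cytosolic genes higher with 0 lower (median 0.29 to 0.35, the highest without M0505 replicate 3) and 42 to 45 mitochondrial genes higher with 5 to 7 lower. Ribosomal proteins with other names had 0 to 1 lower (0 without M0505 replicate 3 or STOSE replicate 1 or 3) with medians of 0.33 to 0.46, RNA polymerase I had 0 to 2 lower (0 without STOSE replicate 2, 1 without M0505 replicate 1 or 2 or STOSE replicate 3), and mTORC1 had 3 to 7 higher (3 without M0505 replicate 3).

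Same-numbered arrays deviated from their line's mean with correlations of 0.256, 0.0421 and 0.249, and STOSE replicate 2 correlated better with M0505 replicate 3 (0.119), so the numbers were not taken to pair the arrays. With the replicate number as a block, 66 cytosolic genes were higher and 0 lower, 45 mitochondrial genes were higher and 8 lower, and 6686 of all genes were higher and 5178 lower. Precision is limited by 3 arrays per line, and Rpl3l and Rpl39l did not exceed the background level on any array.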
